A study of Mus musculus with 36 samples.

Results

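The integrated stress response genes described here were the 10 rows named Atf4, Atf3, Ddit3, Trib3, Chac1, Sesn2, Ddit4, Asns, Psat1 and Phgdh, chosen by gene name out of the 49568 rows that each of 2 count tables held. All 10 were found in both tables, and all 10 passed the filter on low counts in every fit. The tables came from RNA-seq of RAW264.7 cells, an established mouse macrophage cell line, in a study of how peptides of human HLA-DRβ act on macrophage polarization. 65–79*SE is a 15-mer with the shared epitope of rheumatoid arthritis, and 65–79*PE is the 15-mer from the same place in a protective allele. In the IFNγ table, 6 libraries were labelled PBS, 6 65–79*SE with IFNγ and 6 65–79*PE with IFNγ, and in the IL-4 table there were 6 each of PBS, 65–79*SE with IL-4 and 65–79*PE with IL-4. IFNγ and IL-4 drive macrophages towards inflammatory and alternative states. Peptides were used at 100 µg/ml and cytokines at 5 ng/ml, and every group was treated for 72 h. The labels give PBS as the whole treatment of the control libraries and name a cytokine only in their titles, so a contrast against PBS holds the cytokine and the peptide together, and only 65–79*SE against 65–79*PE compares peptides under one labelled cytokine. The cells are 1 line. The 6 libraries of a group are described as biological replicates out of 2 independent experiments, but the labels do not say which library came from which experiment or culture, so that replicates 1–3 and 4–6 cannot be assigned to them with certainty and p-values measure the spread between these libraries. Because RNA was taken in bulk, fewer cells expressing a gene and less RNA per cell cannot be told apart.

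The integrated stress response is a signalling route in which kinases that sense amino acid shortage, unfolded protein in the endoplasmic reticulum, viral RNA or haem shortage phosphorylate the translation factor eIF2α, which slows protein synthesis in general and favours translation of the transcription factor ATF4. ATF4 then raises genes for amino acid synthesis and uptake, and factors such as CHOP, the product of Ddit3, that can shift a stressed cell towards death. In macrophages the route is known to be engaged by nutrient stress, secretory load and inflammatory stimuli, and because ATF4 is controlled mainly in translation, its mRNA is only a partial readout of it.

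The members lie on 8 chromosomes of GRCm38, and each is a protein-coding gene in GENCODE release M21: Atf4 at chr15:80255184-80257541, Atf3 at chr1:191170296-191218039, Ddit3 at chr10:127290774-127296288, Trib3 at chr2:152337422-152344032, Chac1 at chr2:119351229-119354381, Sesn2 at chr4:132492032-132510501, Ddit4 at chr10:59949669-59951834, Asns at chr6:7675169-7693254, Psat1 at chr19:15904678-15947337 and Phgdh at chr3:98313170-98339990. Values are counts per gene, not per transcript. Ddit3 overlaps Mars, a gene for a tRNA synthetase on the opposite strand. Mars stood at 91.1 to 139 CPM in the IFNγ table and at 86.4 to 194 CPM in the IL-4 table, and since the strand setting of the counting was not stated, reads in that overlap cannot be assigned with certainty.

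ATF4 with its partners is known to bind a C/EBP-ATF response element. Its core was searched as TGATGNAA on both strands in RefSeq promoters of GRCm38.p6, windows from 250 bases before to 50 bases after a gene's start. It was found for 4 of the 10 members, Atf3, Asns, Trib3 and Chac1, and for 4.51% of all 27025 genes with a window (3.97% of 32851 windows). The cyclic AMP response element TGACGTCA was in the windows of 0 members and 2.03% of genes, and the ER stress response element was in 0 members and 0.137%. The stretches around the 4 matches are shown so that the members holding the core can be compared, with the match in capitals, reading in the direction of the gene. A match describes the letters of the window and is not evidence of binding.

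Asns, chr6:7693210-7693258, minus strand: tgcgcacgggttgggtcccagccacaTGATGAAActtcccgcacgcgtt

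Atf3, chr1:191183410-191183469, minus strand: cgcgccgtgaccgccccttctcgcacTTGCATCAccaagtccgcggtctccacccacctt

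Chac1, chr2:119351023-119351082, plus strand: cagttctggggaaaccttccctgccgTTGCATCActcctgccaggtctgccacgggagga

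Trib3, chr2:152344039-152344068, minus strand: tcagcagcagattagctcaggtTTACATCA

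The match starts 23 bases upstream of the RefSeq start in Asns, 110 upstream in Atf3 and 193 upstream in Chac1, and 14 bases downstream of it in Trib3. In Asns it is written on the strand of the gene, and in the other 3 on the opposite strand.

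Library totals ran from 20666573 to 63155889 counts in the IFNγ table and from 17049921 to 30639021 in the IL-4 table, and no member fell below 91 counts in any library. Values are CPM, read counts scaled to library size with TMM factors, and intervals cover the spread between libraries. Replicates 1–3 and 4–6 carry column names of different kinds and are shown apart, as the first and the second set. The small RNA genes Rn7s1 and Rn7s2 took 11.2 to 15.1% of counts in replicates 4–6 of the IFNγ table and at most 0.00158% in replicates 1–3, and no such share was reached in the IL-4 table (at most 0.0334%). A list of 16 IFNγ-induced genes averaged 6.34 to 6.49 log2 CPM with 65–79*SE and 6.44 to 6.45 with 65–79*PE in replicates 1–3, against 1.22 to 1.38 in PBS. In replicates 4–6 it averaged 6.39 to 6.51 with 65–79*PE, but 1.00 to 1.29 in the libraries labelled 65–79*SE with IFNγ, beside 1.26 to 1.52 in PBS. These 3 libraries thus went against their label, and results that use them are given as those of the libraries labelled 65–79*SE. Their contrast with 65–79*PE in replicates 4–6 sets libraries without an IFNγ response against libraries with one, so that peptide and IFNγ response cannot be told apart in it. In the IL-4 table a list of IL-4-induced genes averaged 0.34 to 0.84 and 0.10 to 0.19 log2 CPM with 65–79*SE and 0.34 to 0.97 and -0.01 to 0.05 with 65–79*PE in the sets, against -2.32 to -2.02 and -2.47 to -2.19 in PBS. All 8 macrophage markers, among them Csf1r, Cd68 and Lyz2, were above 35 CPM in every library, and 12 markers of other cell types summed to at most 0.803 CPM.

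With IFNγ, in replicates 1–3, both peptide groups stood above PBS for the stress-response transcription factors and their feedback targets. A gene was called at an adjusted p under 0.05 (edgeR quasi-likelihood test, Benjamini-Hochberg over all genes tested) and a change over 1.5-fold. With 65–79*SE against PBS, 5 of 10 members were called higher (Atf3, Ddit3, Chac1, Trib3 and Atf4) and 0 lower, beside 12.6% of all tested genes called higher and 10.2% lower. With 65–79*PE against PBS, 4 were called higher (Ddit3, Atf3, Trib3 and Chac1) and 0 lower, beside 10.3% and 9.54%. The median log2 fold change over the 10 members was 0.64 with 65–79*SE and 0.55 with 65–79*PE, and over all genes -0.01 and 0.00. On the adjusted p alone 7 members passed with 65–79*SE and 9 with 65–79*PE, and of these only Psat1, with 65–79*PE, was lower. The share of all genes passing by that rule was not computed. At an unadjusted p under 0.05 were 8 and 9 members, beside 8399 and 8254 of all 15343 genes. Between the peptides, 1 member was called, Atf3, which was higher with 65–79*SE, beside 4.48% of genes called higher and 1.60% lower.

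**Figure D1:**
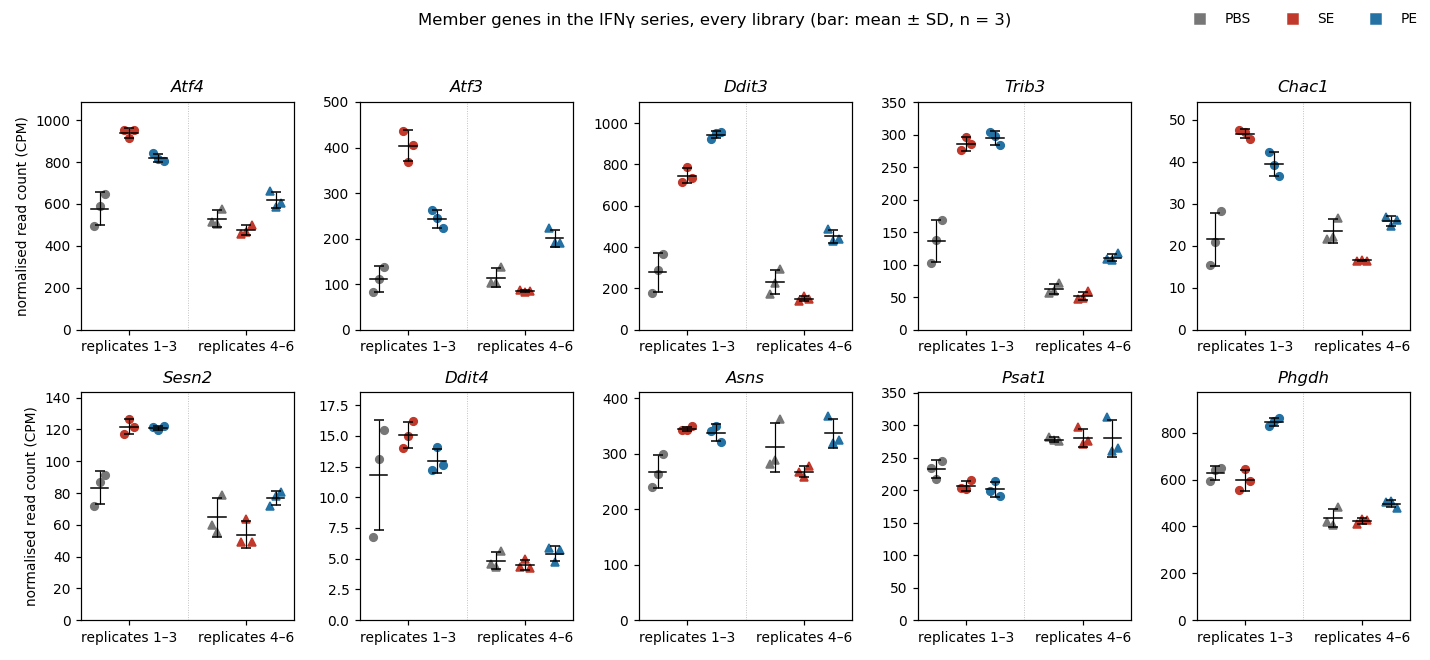
Normalised read counts (CPM, linear axis from 0) of the 10 genes in the 18 libraries of the IFNγ table, circles for replicates 1–3 and triangles for replicates 4–6, with the mean ± SD of each 3 libraries. In replicates 1–3 both peptide groups lie above PBS for Atf4, Atf3, Ddit3, Trib3, Chac1, Sesn2 and Asns, and in replicates 4–6 the libraries labelled 65–79*SE lie under PBS for Atf4, Atf3, Ddit3, Chac1 and Asns while 65–79*PE stays above it for Atf3, Ddit3 and Trib3.

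Atf4, which encodes the central transcription factor of the route, was at 494, 589 and 649.8 CPM in PBS replicates 1–3, 953, 913 and 954 CPM with 65–79*SE and 842, 815 and 805 CPM with 65–79*PE. The 3 groups did not overlap, with 65–79*SE highest and PBS lowest. The log2 fold change against PBS (± its standard error here and below) was 0.72 ± 0.08 for 65–79*SE (edgeR adjusted p = 7.31e-06) and 0.53 ± 0.08 for 65–79*PE (0.000144), the latter 1.45-fold and so short of the 1.5-fold line. The direct difference between the peptides, 0.19 ± 0.08, did not pass (edgeR adjusted p = 0.116). The second set held Atf4 at 512, 503 and 575 CPM in PBS, 456, 465 and 501 in the libraries labelled 65–79*SE and 661, 587 and 605 with 65–79*PE. There the libraries labelled 65–79*SE lay lowest and those with 65–79*PE highest without overlap, with log2 fold changes against PBS of -0.14 and 0.23 that did not pass (edgeR adjusted p = 0.374 and 0.0519). The study listed Atf4 among genes raised uniquely by 65–79*SE, and not by 65–79*PE, under IFNγ. It used these same libraries, so the rise is not independent evidence. In replicates 1–3 Atf4 was higher with 65–79*PE as well, by the adjusted p and not by the 1.5-fold line. The study's listing needed both and pooled all 6 replicates, so the 2 do not compare like with like. Over all replicates 65–79*SE against PBS did not call Atf4 by edgeR or DESeq2. Without the libraries labelled 65–79*SE of replicates 4–6 it was called (0.65, edgeR adjusted p = 5.61e-05).

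Atf3, a stress-inducible member of the same family that is known to restrain inflammatory genes in macrophages, had the largest rise with 65–79*SE of the 10 genes. It was at 82.4, 112 and 138 CPM in PBS replicates 1–3, 437, 368 and 406 with 65–79*SE and 262, 246 and 222 with 65–79*PE. Every 65–79*SE library was above every 65–79*PE library, and every 65–79*PE library above PBS. The log2 fold changes against PBS were 1.88 ± 0.14 for 65–79*SE (3.68-fold, edgeR adjusted p = 1.05e-07) and 1.1596 ± 0.14 for 65–79*PE (2.23-fold, 1.43e-05), and 65–79*SE exceeded 65–79*PE by 0.72 ± 0.14 (edgeR adjusted p = 0.00199). Atf3 in the second set was at 102, 103 and 139 CPM in PBS, 86.2, 83.6 and 85.2 in the libraries labelled 65–79*SE and 222, 189.9 and 191 with 65–79*PE. There 65–79*PE exceeded PBS by 0.82 ± 0.11 (edgeR adjusted p = 0.000218), and the libraries labelled 65–79*SE, in which the IFNγ list stood at the PBS level, differed from 65–79*PE by -1.23 ± 0.11 (8.45e-06).

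Ddit3 encodes CHOP, the factor that links prolonged stress to cell death. It was at 178, 289.6 and 365 CPM in PBS replicates 1–3, 716, 785 and 733 with 65–79*SE and 923, 951 and 958 with 65–79*PE. Here 65–79*PE was the highest group, and no library of one group reached into another. The rises were 1.44 ± 0.18 with 65–79*SE (2.72-fold, edgeR adjusted p = 1.25e-05) and 1.79 ± 0.18 with 65–79*PE (3.46-fold, 2.39e-06). The direct difference of -0.35 ± 0.17 did not pass (edgeR adjusted p = 0.164, 95% interval -0.72 to 0.02). Ddit3 in replicates 4–6 was at 175, 227 and 293 CPM in PBS, 139.6, 161 and 151 in the libraries labelled 65–79*SE and 486, 428 and 439.8 with 65–79*PE. The libraries labelled 65–79*SE were below and those with 65–79*PE above every PBS library. With 65–79*PE it rose by 0.97 ± 0.15 (edgeR adjusted p = 0.00047), and the libraries labelled 65–79*SE against 65–79*PE gave -1.57 ± 0.15 (1.05e-05), a contrast in which the IFNγ list differed as well.

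Trib3 encodes a pseudokinase induced by ATF4 and CHOP that feeds back on both. Its levels were 103, 138 and 169 CPM in PBS replicates 1–3, 276, 297 and 286 with 65–79*SE and 305, 298 and 284 with 65–79*PE. Both peptide groups lay wholly above PBS, by 1.09 ± 0.13 (edgeR adjusted p = 8.57e-06) and 1.14 ± 0.13 (7.47e-06), and overlapped each other (-0.05 ± 0.13, 0.799). The second set gave 56.0, 60.1 and 71.5 CPM in PBS, 47.2, 49.3 and 59.6 in the libraries labelled 65–79*SE and 108, 107 and 118 with 65–79*PE. All 65–79*PE libraries were above the rest, with 0.83 ± 0.11 against PBS (edgeR adjusted p = 0.000118) and -1.08 ± 0.11 for the libraries labelled 65–79*SE against 65–79*PE (1.52e-05). Chac1, an enzyme that degrades glutathione and a target of the ATF4 and CHOP branch, was at 15.5, 20.8 and 28.2 CPM in PBS replicates 1–3, 47.5, 47.1 and 45.5 with 65–79*SE and 42.3, 39.3 and 36.6 with 65–79*PE. No groups overlapped. The log2 fold changes were 1.14 ± 0.15 with 65–79*SE (edgeR adjusted p = 2.55e-05) and 0.90 ± 0.15 with 65–79*PE (0.000256), and the direct difference of 0.24 ± 0.15 did not pass (0.258). The second set held Chac1 at 21.6, 22.1 and 26.7 CPM in PBS, 16.4, 16.7 and 16.4 in the libraries labelled 65–79*SE and 26.9, 24.7 and 26.2 with 65–79*PE. The libraries labelled 65–79*SE were below all others, with -0.49 ± 0.10 against PBS (edgeR adjusted p = 0.0423, a change under 1.5-fold) and -0.64 ± 0.10 against 65–79*PE (0.000364).

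Sesn2 and Ddit4 encode stress-induced proteins that restrain mTORC1, the kinase complex that promotes growth. Sesn2 was at 71.7, 86.7 and 91.6 CPM in PBS replicates 1–3, 117, 127 and 121 with 65–79*SE and 121, 119.9 and 122 with 65–79*PE. Both peptide groups were wholly above PBS and overlapped each other, and the changes of 0.57 ± 0.08 and 0.57 ± 0.08 (edgeR adjusted p = 5.37e-05 and 6.94e-05) were 1.48-fold each, just under the 1.5-fold line. Sesn2 in replicates 4–6 was at 59.8, 55.6 and 78.9 CPM in PBS, 48.9, 63.5 and 49.0 in the libraries labelled 65–79*SE and 71.7, 78.2 and 80.5 with 65–79*PE. PBS overlapped both other groups, and only the libraries labelled 65–79*SE against 65–79*PE passed the adjusted p among its 3 contrasts (-0.50 ± 0.13, edgeR adjusted p = 0.0127). Ddit4 was the lowest of the 10 genes by count. It was at 6.80, 13.1 and 15.5 CPM in PBS replicates 1–3, 14.0, 15.0 and 16.2 with 65–79*SE and 12.2, 14.1 and 12.6 with 65–79*PE, with overlap between all groups. The second set ran from 4.21 to 5.86 CPM over all 9 libraries, and no Ddit4 contrast in the IFNγ table passed (edgeR adjusted p from 0.151 to 0.988).

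None of the 3 amino acid synthesis genes, Asns, Phgdh and Psat1, was called in a contrast of the IFNγ table, where changes that passed the adjusted p were under 1.5-fold. Asns, which encodes asparagine synthetase and is a classical ATF4 target, was at 241, 264 and 299 CPM in PBS replicates 1–3, 343, 342 and 349 with 65–79*SE and 341, 351 and 321 with 65–79*PE. Both peptide groups were above PBS, by 0.38 ± 0.07 and 0.36 ± 0.07 (edgeR adjusted p = 0.000606 and 0.00115), changes under 1.5-fold. Asns in replicates 4–6 was at 282, 289 and 363 CPM in PBS, 267, 258 and 278 in the libraries labelled 65–79*SE and 367, 319.5 and 324 with 65–79*PE. The libraries labelled 65–79*SE lay below both others there, with -0.32 ± 0.10 against 65–79*PE (edgeR adjusted p = 0.0269). Phgdh, the first enzyme of serine synthesis, differed between the peptides. The first set held it at 594, 641 and 651 CPM in PBS, 556, 644 and 593 with 65–79*SE and 829.1, 848 and 861 with 65–79*PE. PBS and 65–79*SE overlapped and 65–79*PE was above both, with 0.45 ± 0.07 for 65–79*PE against PBS (edgeR adjusted p = 8.68e-05) and -0.51 ± 0.07 for 65–79*SE against 65–79*PE (0.000134). The latter is a fall to 0.703 of the 65–79*PE level, past the adjusted p and under 1.5-fold. Phgdh in replicates 4–6 was at 421, 408 and 482 CPM in PBS, 409.7, 429.7 and 429.6 in the libraries labelled 65–79*SE and 504, 507 and 479 with 65–79*PE. The libraries labelled 65–79*SE lay within the range of PBS, and of those with 65–79*PE 1 did and 2 lay above it. The libraries labelled 65–79*SE against 65–79*PE gave -0.22 ± 0.07 (edgeR adjusted p = 0.0421, and 0.0536 with the replicate number as a block). Psat1, the second enzyme of that pathway, ran from 191 to 245 CPM over replicates 1–3 and from 260.4 to 313 over replicates 4–6. The contrast that passed in the IFNγ table was 65–79*PE against PBS in replicates 1–3, at -0.18 ± 0.06 (edgeR adjusted p = 0.0271).

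Across replicates 4–6 as a whole, 65–79*PE against PBS called 3 members higher (Ddit3, Trib3 and Atf3) and 0 lower, beside 6.16% of tested genes higher and 4.66% lower. The libraries labelled 65–79*SE against PBS called 0 members by edgeR (4 had an unadjusted p under 0.05, and DESeq2 called 1, Ddit3), beside 0.720% of genes in either direction. At an unadjusted p under 0.05 were 2680 of 15563 genes there. The same libraries against 65–79*PE called 4 members lower (Ddit3, Atf3, Trib3 and Chac1) and 0 higher, beside 7.90% and 5.91%. The contrast of the libraries labelled 65–79*SE with PBS differed between the sets of replicates for 7 of 10 members (edgeR adjusted p under 0.05, 35.7% of all genes), and that of 65–79*SE with 65–79*PE for 8 (28.8%). For 65–79*PE against PBS it differed for 2, Ddit3 (-0.79 ± 0.25, edgeR adjusted p = 0.0484) and Chac1 (-0.72 ± 0.19, 0.0211), beside 11.5% of all genes. The Ddit3 difference sat at the threshold, since it was lost in 16 of 18 fits without 1 library (edgeR adjusted p up to 0.136) and without the 3 libraries labelled 65–79*SE with IFNγ, replicates 4–6 (0.0523). With histone, Rn7s1 and Rn7s2 counts removed, the members that differed numbered 7, 7 and 2 in the same order of contrasts.

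Over all 6 replicates, with the label set as a term, 65–79*PE against PBS called 3 members (Atf3, Ddit3 and Trib3, all higher), beside 13.0% of genes, and Atf3 lost this call without PBS replicate 1, 2 or 3 or 65–79*PE replicate 4 or 6 (edgeR adjusted p 0.0506 to 0.0642). 65–79*SE against PBS called 0 by edgeR and 0 by DESeq2 (3 members at an unadjusted p under 0.05), beside 3.57%, and 5 once the 3 libraries labelled 65–79*SE with IFNγ, replicates 4–6, were removed. 65–79*SE against 65–79*PE called 0 by edgeR (3 at an unadjusted p under 0.05) and 1 by DESeq2, beside 3.19%, and 1 without those libraries, Atf3, then higher with 65–79*SE. Of all 15949 genes, 4379 were at an unadjusted p under 0.05 for 65–79*SE against PBS and 4072 for 65–79*SE against 65–79*PE. The PBS libraries of the first set kept nearly 1 order across the members. PBS replicate 3 held the highest level of the group for 10 of 10 members and PBS replicate 1 the lowest for 9, and Ddit3 ran from 178 to 365 CPM within that group, whereas the 65–79*SE libraries ran from 716 to 785 CPM. In the second set PBS replicate 6 was highest for 9 of 10. The share of all genes in such an order was not computed, so it cannot be called particular to the members. Over all genes compared, chi-square per degree of freedom was 31.6 and 30.8 for PBS replicate 1 against 2 and 3, and 6.48 for 2 against 3.

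**Figure D2:**
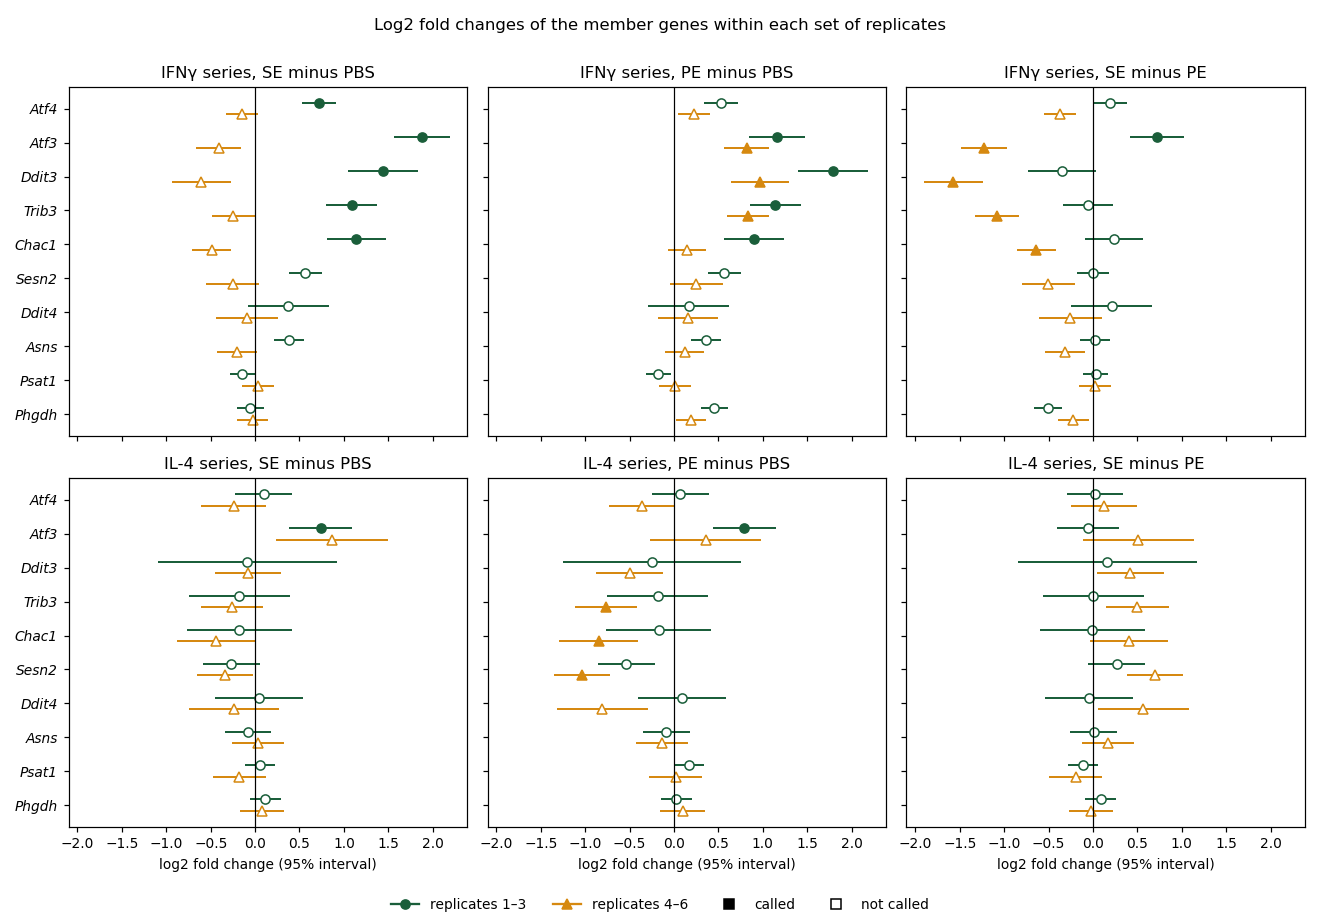
Log2 fold changes of the 10 genes with 95% intervals, in replicates 1–3 (circles) and 4–6 (triangles), for each contrast (columns) of the IFNγ table (top) and the IL-4 table (bottom), with filled symbols for called genes. The IFNγ contrasts of 65–79*SE with PBS are positive in the first set and negative in the second for 8 of 10 genes, all but Psat1 and Phgdh, with second-set intervals wholly under 0 for Atf3, Ddit3, Trib3 and Chac1, and in the IL-4 table the filled symbols are Atf3, higher against PBS in replicates 1–3, and Trib3, Chac1 and Sesn2, lower with 65–79*PE in replicates 4–6.

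With IL-4 the same genes gave a different picture. Atf3 was called higher than PBS with both peptides in replicates 1–3, and the targets Sesn2, Chac1 and Trib3 were called lower with 65–79*PE in replicates 4–6. In that first set 65–79*SE against PBS called 1 member, Atf3, beside 3.07% of tested genes higher and 3.37% lower, and 65–79*PE against PBS also called only Atf3 of the 10, beside 2.31% and 1.64%. 65–79*PE against PBS in the second set called 3 members lower (Sesn2, Chac1 and Trib3) and 0 higher, beside 1.18% of genes lower and 1.06% higher. 65–79*SE against PBS called 0 there by edgeR (3 at an unadjusted p under 0.05) and 1 by DESeq2, Atf3, beside 1.05% of genes. Between the peptides edgeR called 0 members in replicates 1–3 (0 at an unadjusted p under 0.05, 0 by DESeq2), beside 0% of genes, and 0 in replicates 4–6 (4 at an unadjusted p under 0.05, 1 by DESeq2, Sesn2), beside 0%. At an unadjusted p under 0.05 were 2489 of 13472 genes for 65–79*SE against PBS in replicates 4–6. Between the peptides they were 557 of 12350 in replicates 1–3 and 1055 of 13472 in replicates 4–6.

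**Figure D3:**
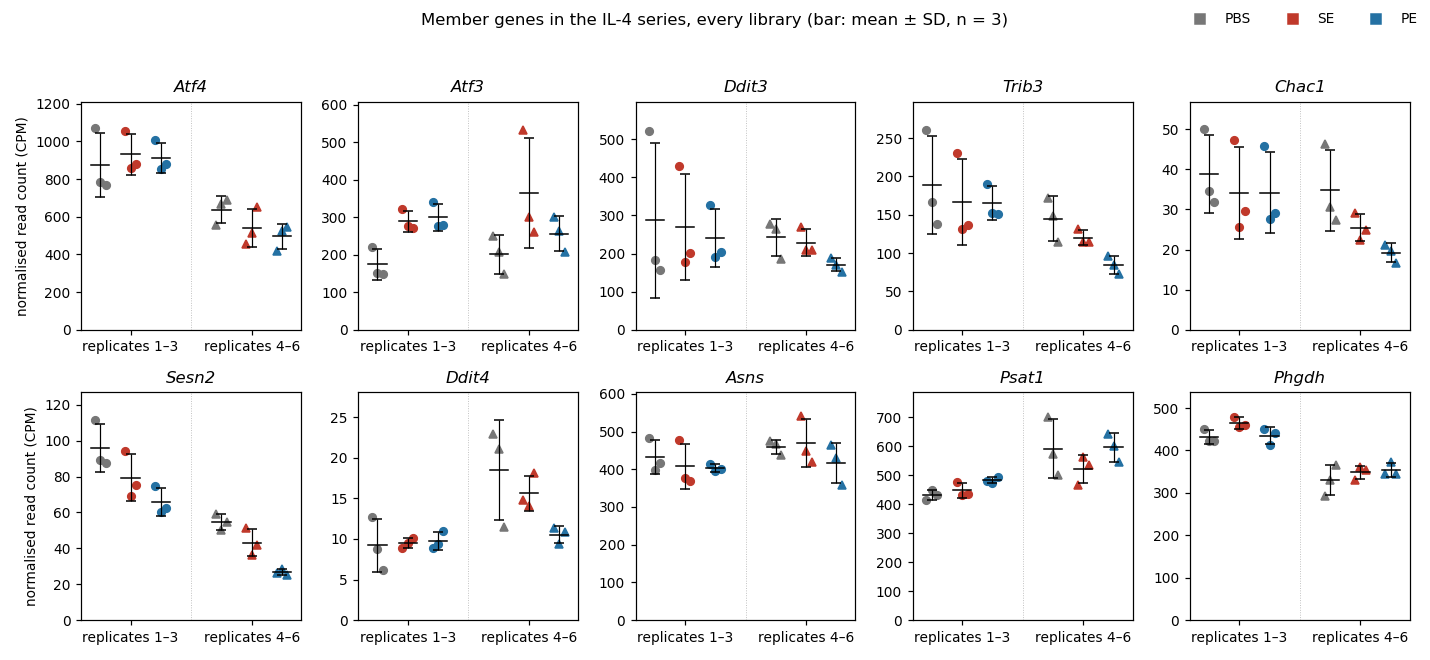
Normalised read counts (CPM, linear axis from 0) of the 10 genes in the 18 libraries of the IL-4 table, drawn as for the IFNγ table with the mean ± SD of each 3 libraries. In replicates 1–3 one library of each group, replicate 1, stands above its group for Ddit3, Trib3 and Chac1, and in replicates 4–6 the Sesn2 libraries with 65–79*PE lie wholly below those of both other groups.

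Atf3 was at 221, 151 and 150.0 CPM in PBS replicates 1–3 of the IL-4 table, 322, 275 and 271 with 65–79*SE and 342, 276 and 281 with 65–79*PE. The peptide groups overlapped each other and lay wholly above PBS, by 0.74 ± 0.16 (1.67-fold, edgeR adjusted p = 0.013) and 0.79 ± 0.16 (1.73-fold, 0.0139). Both calls were lost without PBS replicate 2 (edgeR adjusted p = 0.0618 and 0.0700) or PBS replicate 3 (0.0631 and 0.0667), with changes of 0.64 to 0.70. These fits held no replicate term. With all libraries and the replicate number as a block, the changes were 0.76 and 0.81 (edgeR adjusted p = 0.000131 and 7.74e-05). The second set held Atf3 at 250.1, 207 and 147 CPM in PBS, 533, 300.0 and 261 with 65–79*SE and 300.4, 263 and 206 with 65–79*PE. The 65–79*SE libraries were above PBS, with 1 of them far above the other 2, and the change of 0.87 ± 0.28 did not pass (edgeR adjusted p = 0.156). Over all 6 replicates Atf3 was the 1 member called with 65–79*SE against PBS (0.79 ± 0.18, edgeR adjusted p = 0.00981), beside 3.10% of genes. Without 65–79*SE replicate 4 its change was 0.58 (0.0136), just under 1.5-fold.

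Sesn2 was at 111, 89.1 and 87.7 CPM in PBS replicates 1–3, 94.0, 69.1 and 75.1 with 65–79*SE and 74.7, 60.0 and 62.5 with 65–79*PE. Sesn2 in replicates 4–6 was at 59.1, 50.5 and 54.8 CPM in PBS, 51.5, 36.4 and 41.7 with 65–79*SE and 26.4, 28.4 and 25.2 with 65–79*PE. In each set the 65–79*PE libraries lay wholly below PBS. The change with 65–79*PE was -0.54 ± 0.14 in replicates 1–3 (edgeR adjusted p = 0.0393, under 1.5-fold) and -1.03 ± 0.14 in replicates 4–6 (0.00457, a fall to 0.488 of the PBS level). With the replicate number as a block it was -0.53 in replicates 1–3 (edgeR adjusted p = 0.000452) and -1.03 in replicates 4–6 (0.00344). For 65–79*SE against PBS in replicates 1–3 the block gave -0.27, which passed the adjusted p (0.0109) and was under 1.5-fold. Over all replicates Sesn2 was the 1 member called with 65–79*PE against PBS (-0.80 ± 0.12, edgeR adjusted p = 0.000157), beside 4.35% of genes, and the change of Atf3 there (0.56 ± 0.18, 0.0416) was short of 1.5-fold. The mean of the 65–79*SE libraries of Sesn2 lay between those of PBS and 65–79*PE in both sets, with a direct difference of 0.70 ± 0.14 in replicates 4–6 that did not pass (edgeR adjusted p = 0.513).

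Trib3 was at 172, 149 and 114 CPM in PBS replicates 4–6, 132, 114 and 115 with 65–79*SE and 96.7, 84.8 and 73.2 with 65–79*PE. Chac1 was at 46.3, 30.7 and 27.4 CPM in PBS, 29.2, 22.4 and 24.8 with 65–79*SE and 21.2, 19.7 and 16.6 with 65–79*PE. For both genes the 65–79*PE libraries were below every other library. Trib3 fell by 0.76 ± 0.15 with 65–79*PE against PBS (edgeR adjusted p = 0.0298) and Chac1 by 0.85 ± 0.19 (0.0487). Each of these calls sat near the threshold and was lost in most fits without 1 library, with edgeR adjusted p up to 0.141 for Trib3 and 0.177 for Chac1. Same-numbered PBS and 65–79*PE libraries deviated together in this set (r 0.21 to 0.44), and with the replicate number as a block the adjusted p was 0.00352 for Trib3 and 0.00787 for Chac1. The first set held Trib3 at 261, 167 and 138 CPM in PBS, 231, 131 and 136 with 65–79*SE and 191, 153 and 151 with 65–79*PE. Chac1 was there at 50.1, 34.6 and 31.9 CPM in PBS, 47.3, 25.5 and 29.5 with 65–79*SE and 45.7, 27.6 and 29.1 with 65–79*PE. Replicate 1 was highest in each group, the groups overlapped, and no contrast of either gene passed (edgeR adjusted p from 0.652 to 0.999).

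In replicates 1–3 of the IL-4 table Ddit3 varied more within groups than between their means. It was at 523, 183 and 157 CPM in PBS replicates 1–3, 431, 178 and 202 with 65–79*SE and 328, 191 and 204 with 65–79*PE, so that replicate 1 exceeded both other libraries in each group. Replicate 1 was the highest library for 9 of 10 members in PBS, 9 in 65–79*SE and 8 in 65–79*PE. The share of all genes highest in it was not computed, so this cannot be called particular to the members. Without a replicate term the 95% intervals of the Ddit3 contrasts were wide, -1.08 to 0.91 for 65–79*SE and -1.24 to 0.75 for 65–79*PE against PBS on the log2 scale. They include the variation that same-numbered libraries shared. With the replicate number as a block the changes were 0.004 and -0.07, which did not pass (edgeR adjusted p = 0.985 and 0.770). Ddit3 in the second set was at 277, 263 and 187 CPM in PBS, 269, 209 and 209 with 65–79*SE and 188, 171 and 153 with 65–79*PE. The 65–79*PE libraries reached just above the lowest PBS library, and the change of -0.50 ± 0.16 did not pass (edgeR adjusted p = 0.134). Ddit3 was lower with 65–79*PE in each of the 3 same-numbered pairs, and with the replicate number as a block the change of -0.49, under 1.5-fold, passed the adjusted p (0.0241).

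The other 5 members were not called in any IL-4 contrast within a set of replicates. Atf4 was at 1069, 785 and 769.8 CPM in PBS replicates 1–3, 1057, 857 and 882 with 65–79*SE and 1006, 855 and 879 with 65–79*PE, and these groups overlapped. The second set held Atf4 at 557, 667 and 691 CPM in PBS, 454, 515 and 652 with 65–79*SE and 418, 524 and 543 with 65–79*PE. There the 65–79*PE libraries lay below PBS without overlap (-0.36 ± 0.16, edgeR adjusted p = 0.255, and -0.37 with 0.0272 under the replicate block, a change under 1.5-fold). Ddit4 was at 22.9, 21.1 and 11.5 CPM in PBS replicates 4–6 and 11.4, 9.34 and 10.9 with 65–79*PE, below PBS without overlap (-0.81 ± 0.23, 0.0911), and DESeq2 called it. Asns ran from 359.5 to 540.1 CPM over the 18 libraries, Psat1 from 416 to 702 and Phgdh from 293 to 479.7, and their log2 fold changes against PBS within a set lay between -0.18 and 0.17. In the first set every 65–79*SE library held more Phgdh than the other groups (479.7, 455 and 459 CPM, against 449.6, 422 and 423 in PBS and 451, 413 and 442 with 65–79*PE), and 65–79*SE against 65–79*PE did not pass (0.09 ± 0.07, edgeR adjusted p = 0.878). None of the 3 IL-4 contrasts differed between the sets of replicates for any member by edgeR (unadjusted p under 0.05 for 0, 2 and 0 members for 65–79*SE against PBS, 65–79*PE against PBS and 65–79*SE against 65–79*PE, 0 by DESeq2), beside 4.39%, 0.00705% and 0% of all genes. Of 14183 genes, 3421, 1488 and 444 were at an unadjusted p under 0.05 in these contrasts. Over all replicates 65–79*SE against 65–79*PE called 0 members (1 at an unadjusted p under 0.05, 0 by DESeq2), beside 0.00741% of genes. There 1120 of 13494 genes were at an unadjusted p under 0.05.

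A fit over both tables tested whether a contrast differed between the IFNγ and the IL-4 table, called the cytokine difference below. Each cytokine was used in only 1 table, with PBS libraries of its own, so cytokine and table cannot be told apart. In replicates 1–3, 65–79*SE against PBS differed for 7 of 10 members, all more positive with IFNγ (edgeR adjusted p under 0.05, 26.5% of all genes). The largest differences were Ddit3 at 1.49 ± 0.45 (0.0124), Chac1 at 1.28 ± 0.30 (0.00164) and Trib3 at 1.23 ± 0.28 (0.00119), and those of Atf3, Sesn2, Atf4 and Asns were between 0.42 and 1.10. That of Asns, the lowest of these (0.0486), was lost in 28 of 36 fits without 1 library (edgeR adjusted p up to 0.176) and with histone, Rn7s1 and Rn7s2 counts removed (0.0580). 65–79*PE against PBS differed for 5 members in replicates 1–3 (Ddit3, Trib3, Sesn2, Chac1 and Phgdh, 18.1% of all genes) and for 4 in replicates 4–6 (Trib3, Ddit3, Sesn2 and Chac1, 16.0%). The 4 genes common to both sets had differences of 1.07 to 2.03 in replicates 1–3 and 0.93 to 1.53 in replicates 4–6. In replicates 4–6 Ddit3 lost this difference in 8 of 36 fits without 1 library (edgeR adjusted p up to 0.0917) and Chac1 in 7 (0.156). In replicates 1–3 Chac1 lost it in 3 (0.0635). With 65–79*PE each gene had a positive fold change with IFNγ and a negative one with IL-4 in both sets. Not every such change passed. With IL-4 in replicates 1–3 those of Ddit3, Trib3 and Chac1 did not (-0.07, -0.14 and -0.18 with the replicate number as a block). With IFNγ in replicates 4–6 those of Chac1 and Sesn2 did not (0.15 and 0.25 with the block). Atf3, which rose under both cytokines in replicates 1–3, gave 0.36 ± 0.29 and 0.40 ± 0.29 for 65–79*PE in the sets, which did not pass (edgeR adjusted p = 0.456 and 0.415).

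Of the contrasts in the second set, 65–79*SE against PBS differed between the tables for 1 member, Atf3, at -1.28 ± 0.30 (edgeR adjusted p = 0.00832), beside 6.26% of all genes, and 65–79*SE against 65–79*PE differed for 5 (Atf3, Ddit3, Trib3, Chac1 and Sesn2), beside 19.0%. Both counts rest on the libraries labelled 65–79*SE with IFNγ, replicates 4–6. In replicates 1–3, 65–79*SE against 65–79*PE differed for 1 member, Phgdh, at -0.64 ± 0.12 (0.00183), beside 4.07%. That contrast does not include those libraries, but they entered the estimate of the spread in the shared fit. The tables were counted separately, so only contrasts are compared between them, not levels.

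**Figure D4:**
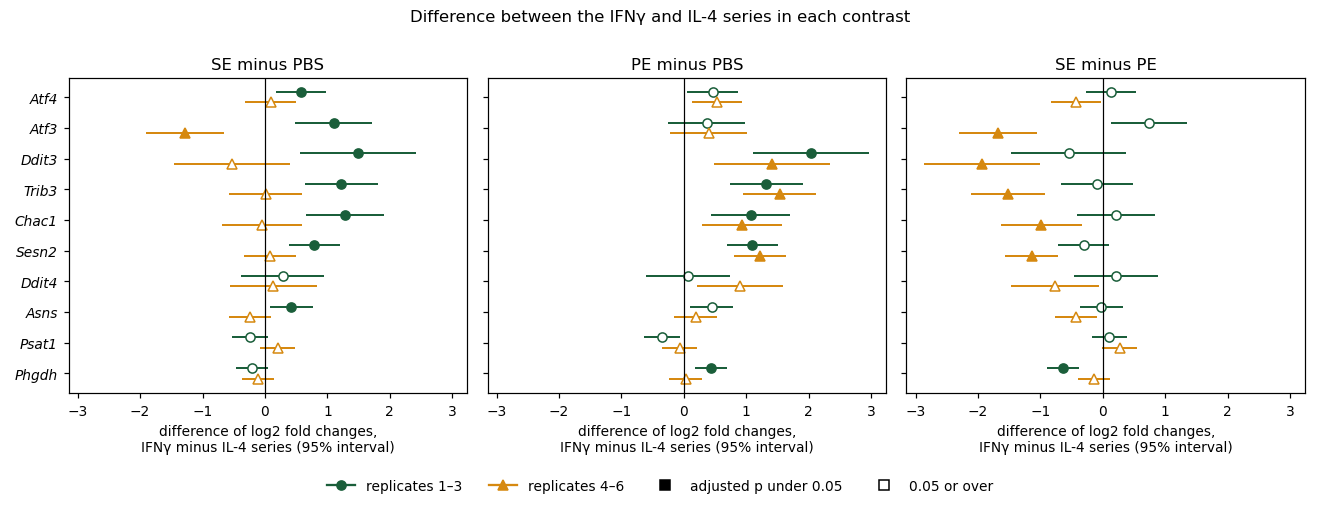
Difference between the IFNγ and IL-4 tables in each contrast, as the log2 fold change with IFNγ minus that with IL-4 and its 95% interval, in replicates 1–3 (circles) and 4–6 (triangles), with filled symbols at an adjusted p under 0.05. For 65–79*PE against PBS, Ddit3, Trib3, Chac1 and Sesn2 lie right of 0 in both sets, while the contrasts of 65–79*SE differ between the sets.

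Other genes of the pathway were counted by lists, each gene called as above, and each list's count is to be read against the share of all tested genes called in the same contrast. With 65–79*SE and IFNγ against PBS in replicates 1–3, 3 of 18 regulators of the route were called higher (Jdp2, Nupr1 and Ppp1r15a) and 3 lower, all of them eIF2α kinases (Eif2ak2, Eif2ak3 and Eif2ak4), beside 12.6% of all genes higher and 10.2% lower. Ppp1r15a, whose product GADD34 reverses eIF2α phosphorylation, rose by 1.50 ± 0.16 (edgeR adjusted p = 4.27e-06), while Eif2ak3, which encodes the eIF2α kinase PERK, changed by -1.39 ± 0.08 (3.19e-09). Of 10 amino acid transporters 4 were higher (Slc7a11, Slc1a4, Slc3a2 and Slc6a9) and 1 lower (Slc38a2), with Slc7a11, the cystine carrier, at 1.56 ± 0.10 (1.22e-08) and Slc38a2, a carrier of neutral amino acids, at -0.76 ± 0.07 (5.11e-07). Of 13 further genes of serine, one-carbon and proline metabolism 2 were higher and 0 lower, with Cth, an enzyme that makes cysteine, at 1.35 ± 0.08 (7.84e-09). Of 13 tRNA synthetases 0 were called in either direction by edgeR and 0 by DESeq2, with a median log2 fold change of 0.16. Of them 8 were at an unadjusted p under 0.05, beside 8399 of all 15343 genes. Of 12 other ATF4 and CHOP targets 4 were higher and 0 lower, with Gdf15, a secreted stress cytokine, at 1.41 ± 0.18 (1.64e-05). Of 20 chaperones and unfolded protein response genes 2 were higher (Ern1 and Hspa5) and 2 lower (Dnajc3 and Edem1), shares near those of all genes. Ern1, which encodes the sensor kinase IRE1α, changed by 0.95 ± 0.08 (2.85e-07) and Dnajc3, a co-chaperone, by -0.62 ± 0.06 (9.75e-07).

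For a list with 0 calls, the numbers in brackets are the genes at an unadjusted p under 0.05 and those called by DESeq2. The first number is to be read against all genes at an unadjusted p under 0.05, and not against the share called. With IFNγ in replicates 1–3 these were 8254 of 15343 genes for 65–79*PE against PBS and 5603 for 65–79*SE against 65–79*PE. In replicates 4–6 they were 5522 of 15563 for 65–79*PE against PBS. For the libraries labelled 65–79*SE they were 2680 against PBS and 6390 against 65–79*PE. With 65–79*PE and IFNγ against PBS in replicates 1–3, edgeR called 3 higher (Jdp2, Nupr1 and Ppp1r15a) and 2 lower (Eif2ak2 and Eif2ak3) of 18 regulators, 4 higher (Slc1a4, Slc3a2, Slc6a9 and Slc7a11) and 1 lower (Slc38a2) of 10 transporters, 2 higher (Cth and Pycr1) of 13 serine, one-carbon and proline genes, 5 higher (Gdf15, Herpud1, Sqstm1, Stc2 and Tnfrsf10b) of 12 other targets and 2 higher (Creld2 and Hspa5) of 20 chaperone genes, and 0 of 13 tRNA synthetases (8 and 0), beside 10.3% of all genes higher and 9.54% lower. Nupr1, a stress-induced chromatin protein, rose by 1.79 ± 0.14 (edgeR adjusted p = 2.33e-07), and Hspa5, the chaperone BiP, rose from 5476 ± 902 to 10632 ± 349.7 CPM (SD, n = 3, scaled over the 9 libraries of the set, edgeR adjusted p = 1.87e-06). Slc3a2, the shared heavy chain of several transporters, rose by 1.15 ± 0.08 (1.19e-07), Cth by 1.23 ± 0.08 (3.06e-08) and Gdf15 by 1.18 ± 0.18 (0.000111), while Eif2ak3 changed by -1.09 ± 0.07 (5.5e-08) and Slc38a2 by -0.79 ± 0.07 (5e-07). In the second set edgeR called 1 higher (Nupr1) and 1 lower (Atf5) of 18 regulators, 1 higher (Slc1a4) and 1 lower (Slc38a2) of 9 transporters, 1 higher (Cth) of 13 serine, one-carbon and proline genes and 2 higher (Herpud1 and Sqstm1) of 12 other targets, and 0 of 20 chaperone genes (5 and 0) and 13 tRNA synthetases (3 and 0), beside 6.16% of all genes higher and 4.66% lower. Nupr1 rose there by 1.45 ± 0.16 (edgeR adjusted p = 3.92e-05), Cth by 0.86 ± 0.17 (0.00341) and Slc38a2 changed by -0.78 ± 0.08 (1.98e-05). Slc1a4, a carrier of small neutral amino acids, rose by 0.94 ± 0.12 (0.000162) and Herpud1, which acts in degradation of proteins from the endoplasmic reticulum, by 0.71 ± 0.09 (0.000152). Atf5, a relative of Atf4, changed by -0.69 ± 0.12 (0.00113). For the libraries labelled 65–79*SE with IFNγ, replicates 4–6, against PBS, edgeR called 2 lower (Aldh1l2 and Pycr1) of 13 serine, one-carbon and proline genes and 1 lower (Stc2) of 12 other targets, and 0 of 18 regulators (3 and 1), 9 transporters (7 and 0), 20 chaperone genes (10 and 0) and 13 tRNA synthetases (4 and 0), beside 0.720% of all genes in either direction. There Pycr1, a proline synthesis enzyme, changed by -0.87 ± 0.14 (edgeR adjusted p = 0.0246) and Stc2, a secreted glycoprotein, by -0.94 ± 0.19 (0.0434).

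Between the peptides with IFNγ, edgeR called, with 65–79*SE in replicates 1–3, 1 higher (Slc7a11) of 10 transporters, 1 lower (Pycr1) of 13 serine, one-carbon and proline genes, 1 higher (Ero1l) of 12 other targets and 1 higher (Ern1) and 3 lower (Creld2, Dnajc3 and Sdf2l1) of 20 chaperone genes, and 0 of 18 regulators (10 and 0) and 13 tRNA synthetases (3 and 0), beside 4.48% of all genes higher and 1.60% lower. Slc7a11 was higher with 65–79*SE by 0.86 ± 0.09 (edgeR adjusted p = 2.95e-05), Ern1 by 0.90 ± 0.08 (4.63e-06) and Ero1l, an oxidase of the endoplasmic reticulum, by 0.60 ± 0.17 (0.0209). Pycr1 changed by -0.68 ± 0.10 (0.000304) and Creld2 by -0.60 ± 0.12 (0.00233). Of 12 immediate early and AP-1 genes, the family to which ATF3 contributes as a dimer partner, 5 were higher and 0 lower with 65–79*SE in replicates 1–3, led by Dusp1, a phosphatase of stress kinases, at 1.77 ± 0.11 (3.15e-07). In the second set the contrast was that of the libraries labelled 65–79*SE, without an IFNγ response, with 65–79*PE, in which 16 of 16 IFNγ list genes were called lower, and it does not compare peptides under IFNγ. In it edgeR called 1 higher (Atf5) and 2 lower (Nupr1 and Ppp1r15a) of 18 regulators, 4 lower (Slc1a4, Slc3a2, Slc6a9 and Slc7a5) of 9 transporters, 3 lower (Cth, Mthfd2 and Pycr1) of 13 serine, one-carbon and proline genes, 4 lower (Ero1l, Herpud1, Sqstm1 and Stc2) of 12 other targets and 1 lower (Hspa5) of 20 chaperone genes, and 0 of 13 tRNA synthetases (10 and 0), beside 5.91% of all genes higher and 7.90% lower. Nupr1 changed by -1.74 ± 0.16 (9.46e-06), Slc1a4 by -1.38 ± 0.13 (8.18e-06), Cth by -1.46 ± 0.18 (8.01e-05), Stc2 by -1.24 ± 0.19 (0.000368), Hspa5 by -0.78 ± 0.11 (0.000213) and Atf5 by 0.76 ± 0.12 (0.000476). There 3 immediate early genes were higher and 1 lower. Against PBS in replicates 1–3, 4 immediate early genes were higher and 3 lower with 65–79*SE, and 2 higher and 4 lower with 65–79*PE.

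With IL-4 the calls in these 6 lists within a set of replicates were falls. For 65–79*SE against PBS in replicates 1–3, edgeR called 1 lower (Jdp2) of 18 regulators, 2 lower (Slc38a2 and Slc7a11) of 9 transporters and 1 lower (Aldh1l2) of 13 serine, one-carbon and proline genes, and 0 of 12 other targets (5 and 0), 20 chaperone genes (11 and 1) and 13 tRNA synthetases (1 and 0). For 65–79*PE against PBS in the same set it called 1 lower (Jdp2) of 18 regulators, 2 lower (Slc1a4 and Slc7a11) of 9 transporters and 1 lower (Herpud1) of 12 other targets, and 0 of 13 serine, one-carbon and proline genes (7 and 0), 20 chaperone genes (10 and 0) and 13 tRNA synthetases (3 and 0). Slc7a11 changed by -0.98 ± 0.24 with 65–79*SE (edgeR adjusted p = 0.0194) and -1.18 ± 0.24 with 65–79*PE (0.0148), and Jdp2, a repressor of the AP-1 family, by -0.83 ± 0.11 (0.00136) and -0.87 ± 0.11 (0.00113). Aldh1l2, an enzyme of one-carbon metabolism, changed by -0.65 ± 0.16 with 65–79*SE (0.0213) and Herpud1 by -0.62 ± 0.14 with 65–79*PE (0.0196). Of all genes 3.07% were called higher and 3.37% lower with 65–79*SE, and 2.31% and 1.64% with 65–79*PE. At an unadjusted p under 0.05 were 4275 of 12350 genes with 65–79*SE and 3473 with 65–79*PE. In the second set, 65–79*PE against PBS gave 2 lower (Jdp2 and Ppp1r15a) of 18 regulators, 3 lower (Slc3a2, Slc6a9 and Slc7a5) of 9 transporters, 1 lower (Herpud1) of 12 other targets, 1 lower (Syvn1) of 20 chaperone genes and 1 lower (Vars) of 13 tRNA synthetases, and 0 of 13 serine, one-carbon and proline genes (4 and 0), beside 1.18% of all genes lower. Slc7a5, a carrier of large neutral amino acids, changed by -0.98 ± 0.11 (0.00141), Herpud1 by -0.70 ± 0.13 (0.023) and Vars, a tRNA synthetase, by -0.81 ± 0.15 (0.0232). Jdp2 changed by -1.01 ± 0.17 (0.0144) and Syvn1, a ubiquitin ligase of the same degradation route, by -0.87 ± 0.16 (0.0238). 65–79*SE against PBS in the second set gave 1 lower (Slc7a5) of 9 transporters, and 0 of 18 regulators (3 and 1), 13 serine, one-carbon and proline genes (5 and 0), 12 other targets (4 and 0), 20 chaperone genes (2 and 0) and 13 tRNA synthetases (3 and 1), beside 1.05% of all genes in either direction. Slc7a5 changed there by -0.61 ± 0.11 (edgeR adjusted p = 0.0248). Against PBS in the second set, 2489 of 13472 genes were at an unadjusted p under 0.05 with 65–79*SE and 2556 with 65–79*PE. Of 12 immediate early and AP-1 genes, Egr2, which the IL-4 list also holds, was called higher in each set with each peptide. Others of that list were called lower. Fosl2 changed by -1.04 ± 0.17 with 65–79*SE (edgeR adjusted p = 0.00518) and -1.15 ± 0.17 with 65–79*PE (0.00329) in replicates 1–3. Ier2 changed by -1.05 ± 0.22 with 65–79*PE in replicates 4–6 (0.0331). No gene of these lists was called between the peptides with IL-4 by edgeR within a set, where the whole table gave 0 calls within either set and 557 and 1055 genes at an unadjusted p under 0.05.

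The members differed in how closely they followed their common mean, and Psat1 with IFNγ and Phgdh with IL-4 did not follow it. Each library was given the mean of the 10 genes' standardized log2 CPM, centred within the sets of replicates. Across the 18 libraries of the IFNγ table, which share the 3 groups, Pearson's r of single members with this mean, which contains them, was 0.96 for Asns, 0.96 for Ddit3, 0.95 for Trib3, 0.94 for Atf4, 0.94 for Chac1, 0.92 for Atf3, 0.92 for Sesn2, 0.78 for Ddit4, 0.52 for Phgdh and -0.35 for Psat1. In the IL-4 table it was 0.95 for Trib3, 0.94 for Ddit3, 0.90 for Chac1 and 0.76 for Asns, but 0.33 for Atf3. Psat1 and Phgdh, neighbours in the serine pathway, were among the lowest in both tables (0.13 and -0.05 with IL-4). The 5 other genes most like the mean, among 10560 genes with at least 5 CPM, were Akap8l (0.97), Odf2 (0.97), Gch1 (0.97), Stk40 (0.97) and Tes (0.97) with IFNγ, and among 9734 genes Slc3a2 (0.90), Ppp1r15a (0.88), Ccl2 (0.87), Fcgr2b (0.86) and Lmo4 (0.86) with IL-4. Of these, Slc3a2 and Ppp1r15a are also in the lists of transporters and regulators above. These correlations describe the libraries and carry no test.

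Within PBS the sets of replicates stood at different levels for some members. In the IFNγ table Trib3 was at 137 ± 32.9 CPM (SD, n = 3) in PBS replicates 1–3 and 62.5 ± 8.0 in replicates 4–6, and Ddit4 at 11.8 ± 4.48 and 4.85 ± 0.705, while Atf3 was at 111 ± 27.9 and 114 ± 21.0. In the IL-4 table Psat1 was at 433 ± 16.9 and 592 ± 102, and Sesn2 at 96.0 ± 13.2 and 54.8 ± 4.28. These levels are described and were not tested.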

How the data were processed

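RNA of 36 RAW264.7 samples was sequenced by the authors as 2 series of 18. By the study's methods, stranded mRNA libraries were read from 1 end, and uniquely aligned reads were counted per gene with featureCounts on GENCODE M12. The submitters' processing notes name GRCm38.p5, R 3.4.1 and DESeq2 1.16.1. The aligner and the strand option are not given in the sources used here. The values deposited by the authors are raw counts, whole numbers per gene without normalization, with library totals from 17049921 to 63155889, so precision is set by the 3 libraries of a group more than by depth. Counting error alone would allow 3 counts for a gene seen 0 times.

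Counts were tested with edgeR 4.0.16 in R 4.3.3 (TMM factors, filterByExpr, quasi-likelihood test, Benjamini-Hochberg over all genes tested), within replicates 1–3 and 4–6, and over all 6 replicates with the set as a term. Calls needed an adjusted p under 0.05 and a change over 1.5-fold, and tests of differences the adjusted p only. A standard error is the log2 fold change divided by the square root of F. DESeq2 1.42.0, RLE factors, other filters, a replicate block and leaving out single libraries were alternatives. The scripts were tested on simulated counts with 200 genes changed.

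The members and lists were chosen with earlier results of these data known. From each of the 6 pathway lists the gene with the largest called change in each direction at 5 CPM or more on average is given with values, and other called list genes are named after their values were seen. Groups came from the labels. Among 90 pairs of libraries of a group, 0 were identical, and chi-square per degree of freedom was at least 5.23. In replicates 1–3 of the IL-4 table same-numbered libraries deviated together (r 0.13 to 0.51 in all 9 pairs). The own number gave the highest r in 7 of these 9 pairs, not in all. The numbers were therefore taken to pair the libraries there, from the data and not from the labels. In replicates 4–6 all 3 pairs were over 0.1 for PBS and 65–79*PE with IL-4 (0.21 to 0.44) and for the libraries labelled 65–79*SE and 65–79*PE with IFNγ (0.10 to 0.16). Of the gene names, 26 in each table had been turned into dates and 4 names were repeated, none of them a member. Gene positions are from GENCODE M21 on GRCm38, and promoter sequences are from RefSeq on GRCm38.p6, in which all 10 members were matched. Protein sequences were not used here.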

Additional observations from a re-analysis of the deposited data

Results flagged for a closer look

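In 60 groups of 6 libraries, a member in a group of a table, 6 held 1 library whose gap to the next was above Dixon's 95% critical value, and chance gives about 1 in 20 groups. All 6 were in the IL-4 table. Ddit3 replicate 1 stood at 523 CPM in PBS, 431 with 65–79*SE and 328 with 65–79*PE. Trib3 with 65–79*SE stood at 231 CPM in replicate 1 and Chac1 with 65–79*SE at 47.3 CPM in replicate 1. Atf3 with 65–79*SE stood at 533 CPM in replicate 4. The groups join both sets of replicates.

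Tested differences between the sets of replicates in the IFNγ table (replicates 4–6 minus 1–3, log2, edgeR adjusted p under 0.05) came out for 7 members in 65–79*SE against PBS, namely Atf3 at -2.27, Atf4 at -0.84, Ddit3 at -2.03, Asns at -0.56, Trib3 at -1.31, Chac1 at -1.61 and Sesn2 at -0.80. For 65–79*PE against PBS they were Ddit3 at -0.79, which was lost in 16 of 18 fits without 1 library, and Chac1 at -0.72. For 65–79*SE against 65–79*PE they were Atf3 at -1.97, Atf4 at -0.58, Ddit3 at -1.24, Asns at -0.36, Trib3 at -1.04, Chac1 at -0.89, Sesn2 at -0.52 and Phgdh at 0.27 (lost in 11 of 18 such fits), so that Phgdh alone of these was positive. The contrasts with 65–79*SE rest on the libraries labelled 65–79*SE with IFNγ, replicates 4–6, in which the IFNγ list stood at the PBS level.

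Tested differences between the tables (IFNγ minus IL-4, log2, edgeR adjusted p under 0.05) for 65–79*SE against PBS were Atf3 at 1.10, Atf4 at 0.58, Ddit3 at 1.49, Asns at 0.42 (lost in 28 of 36 fits without 1 library), Trib3 at 1.23, Chac1 at 1.28 and Sesn2 at 0.79 in replicates 1–3, and Atf3 at -1.28 in replicates 4–6. For 65–79*PE against PBS the first set gave Ddit3 at 2.03, Trib3 at 1.32, Chac1 at 1.07, Sesn2 at 1.10 and Phgdh at 0.43. The second set gave Ddit3 at 1.40 (lost in 8 of 36 fits without 1 library), Trib3 at 1.53, Chac1 at 0.93 (lost in 7) and Sesn2 at 1.22. For 65–79*SE against 65–79*PE the values were Phgdh at -0.64 in replicates 1–3, and Atf3 at -1.68, Ddit3 at -1.94, Trib3 at -1.52, Chac1 at -0.98 and Sesn2 at -1.14 in replicates 4–6.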

How the results depend on the processing

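Values are counts of the 10 members called, or differing for differences, and the cause of a change was not tested unless stated. With the libraries labelled 65–79*SE with IFNγ, replicates 4–6, removed, a choice made after seeing the data, the IFNγ counts over all replicates became 5 for 65–79*SE against PBS and 1 for 65–79*SE against 65–79*PE, where Atf3 turned from lower to higher (0.81, edgeR adjusted p = 0.00126), and the 65–79*PE against PBS difference between sets became 1. DESeq2 called 1 for 65–79*SE against PBS in replicates 4–6 in both tables, 1 for 65–79*SE against 65–79*PE over all replicates with IFNγ and 1 in replicates 4–6 with IL-4. With no filter on low counts these 4 counts were also 1, 65–79*SE against PBS over all IFNγ replicates gave 1, and the cytokine difference gave 2 for 65–79*SE against PBS in replicates 4–6 and 2 for 65–79*SE against 65–79*PE in replicates 1–3. Without the label set term, 65–79*PE against PBS gave 0 with IFNγ and 0 with IL-4, and 65–79*SE against PBS with IL-4 gave 0. Without histone, Rn7s1 and Rn7s2 counts, 65–79*PE against PBS over all IL-4 replicates gave 2. RLE size factors and a minimum of 10 counts in every library left each count within 1.5 times, but ended the Chac1 call of 65–79*PE against PBS with IL-4 in replicates 4–6 (edgeR adjusted p = 0.0517 and 0.0513).

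With the replicate number as a block (replicate block), the counts moved to 1 for 65–79*SE against PBS in replicates 4–6 of each table, and to 8 and 2 for the cytokine difference of 65–79*PE against PBS and of 65–79*SE against 65–79*PE in replicates 1–3. Atf3 for 65–79*PE against PBS over all IFNγ replicates lost its call (edgeR adjusted p = 0.0615). Same-numbered libraries correlated at -0.15 to 0.13 in replicates 1–3 and -0.05 to 0.16 in replicates 4–6 with IFNγ and at -0.11 to 0.44 in replicates 4–6 with IL-4, and over all 3 groups of a set not every library correlated best with its own number. It did so in replicates 4–6 for PBS and 65–79*PE with IL-4 and for the libraries labelled 65–79*SE and 65–79*PE with IFNγ. In replicates 1–3 with IL-4 the numbers were taken to pair the libraries, with the highest r at the own number in 7 of 9 pairs. There and in these 2 contrasts the block changed no member call, but some changes under 1.5-fold moved across the adjusted p. With IL-4, Ddit3 and Atf4 then passed for 65–79*PE against PBS in replicates 4–6 (edgeR adjusted p = 0.0241 and 0.0272). Sesn2 then passed for 65–79*SE against PBS in replicates 1–3 with IL-4 (0.0109). With IFNγ, Phgdh no longer passed (0.0536).

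Leaving out 1 library gave, with IFNγ, 5 to 7 for 65–79*SE against PBS, 4 to 6 for 65–79*PE against PBS and 1 for 65–79*SE against 65–79*PE in replicates 1–3, 0 to 1, 3 and 4 to 5 in replicates 4–6, and 0 to 1, 2 to 4 and 0 to 1 over all. The differences between sets gave 7, 0 to 3 and 5 to 9. With IL-4 it gave 0 to 1, 0 to 2 and 0 in replicates 1–3, 0, 1 to 4 and 0 in replicates 4–6, 0 to 1, 1 to 2 and 0 over all, and 0 for the differences between sets. The cytokine differences gave 4 to 7, 3 to 6 and 1 in replicates 1–3 and 0 to 1, 2 to 6 and 4 to 7 in replicates 4–6. Chac1 of 65–79*PE against PBS with IL-4 in replicates 4–6 lost its call in 7 of 9 such fits and Trib3 in 6. In simulated data a change of 2-fold was recovered for 69.5 to 84% of genes within a set, which is the limit that 3 libraries a group set on a change of that size.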
